A study of Homo sapiens with 4 samples.

Results

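Of the 28278 genes in the count table of this RNA-seq series, 8 sodium channel genes are described here. They were picked by symbol: *SCN1A*, *SCN2A*, *SCN3A* and *SCN9A*, which lie together on chromosome 2, *SCN8A* and *SCN4A*, which lie on other chromosomes, and the beta subunit genes *SCN3B* and *SCN4B*. The choice used the same comparison that is given below, because members of the family had been seen to move in opposite directions, so the differences of these 8 genes are a description and carry no test. The libraries are described as made from HepG2 cells, a human line derived from a liver cancer. All the cells had received a lentivirus expressing Cas9. They were treated for 24 h with Sorafenib, a kinase inhibitor used against advanced hepatocellular carcinoma. The 2 control libraries came from cells with a control sgRNA, and the 2 libraries labelled sgUSP22 came from cells with an sgRNA against *USP22*, a deubiquitinase of the SAGA coactivator complex. Both were stable infected populations, 1 guide against *USP22* is given, and nothing in the labels says that libraries of a group came from separate cultures, so p-values measure only the spread between these libraries, which may be technical.

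Voltage-gated sodium channels open when a cell membrane depolarises and carry the fast inward sodium current of the action potential in neurons and muscle. Each channel is built from 1 large pore-forming alpha subunit, encoded by a gene such as *SCN1A*, and smaller beta subunits, encoded by genes such as *SCN3B*, which adjust gating and bind adhesion molecules. They are best known from excitable tissue, and hepatocytes are not excitable cells, although transcripts of single family members are found in many cultured carcinoma lines.

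Total counts ranged from 62030307 to 64728272 per library. The transcript of the targeted gene was not lower: counts of *USP22* were 16450 and 16537 in control cells, and 20279 and 20368 in those labelled sgUSP22, so directions below follow the label only, and an sgUSP22 library is one that carries this label. The paper reports a check of the *USP22* knockout by Western blot, and protein was not measured in these libraries. The markers of the labelled cell type were mostly missing. Of 24 hepatocyte genes, *ALB*, *APOA1*, *APOB* and *TTR* were among 11 at 0 in every library. *AFP* had between 0 and 4 counts and *HNF4A* between 0 and 9. Of the 5 that were tested, the urea cycle gene *CPS1* had between 60849 and 87325 counts. *FOXA1* had between 764 and 1030, and *CEBPA* between 336 and 510. Whether the cells were HepG2 was not tested, so that name is used as a label only. Among 14 neuron markers 7 were at 0 in all libraries. Of the 6 that were tested 0 were called, where 16.1% of all tested genes were. In control libraries the 14 summed to 29.9 to 30.4 CPM (counts scaled to library size with TMM factors). In those labelled sgUSP22 they summed to 31.8 to 33.5 CPM. The part of these cells or markers in the results was not tested, and in RNA from whole cultures a change in the number of cells of a kind and in RNA per cell cannot be told apart. Low values were uneven. Between 29.1% and 31.1% of counts from 1 to 24 were multiples of 4, where an even spread gives 25%, so a count of 4 or 12 should not be read as that many independent reads.

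The alpha subunit genes of chromosome 2 are close paralogs, and the stretches at which reads cannot tell them apart bear on their counts. Of the 50-base windows along the longest annotated transcript, 5.79% in *SCN3A*, 3.85% in *SCN2A*, 3.70% in *SCN9A* and 2.11% in *SCN1A* occurred without a mismatch in a transcript of another gene of the family. In *SCN8A*, *SCN4A*, *SCN3B* and *SCN4B* no window did. *SCN3A* and *SCN9A*, which moved in opposite directions, share the longest identical run of any pair of the 6 alpha genes, 206 bases, all of it coding. Next comes a coding run of 170 bases shared by *SCN1A* and *SCN2A*, which lie on opposite strands. *SCN1A* and *SCN9A* share at most 79 bases in a row. The identical runs are a small part of transcripts of 9102 bases (*SCN3A*) to 12903 bases (*SCN1A*), and how the counting divided reads within them is not given in the sources used here.

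Among the chromosome 2 genes, *SCN1A* and *SCN3A* were higher and *SCN9A* was lower in the libraries labelled sgUSP22. *SCN1A*, at chr2:165984641-166149214 on the minus strand of hg38, encodes Nav1.1, a channel of inhibitory interneurons that is mutated in Dravet syndrome. It had 140 counts in each control library, and 2265 and 2636 counts in sgUSP22 replicates 1 and 2. Both sgUSP22 libraries thus lay far above both controls, and the mean level was 2.27 ± 0.0367 CPM (SD, n = 2) in control and 37.7 ± 4.50 (SD, n = 2) in sgUSP22 libraries. The fitted log2 ratio of sgUSP22 to control was 4.05, with a standard error (SE) of 0.12, or 16.6-fold. Each of the 4 pairs of a sgUSP22 and a control library gave a log2 ratio between 3.91 and 4.19, while the libraries within a group differed by 0.033 and 0.24.

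*SCN3A*, at chr2:165087526-165204050 on the minus strand, encodes Nav1.3, a channel that is abundant in the fetal brain. Control replicates 1 and 2 had 67 and 102 counts, and the sgUSP22 libraries had 533 and 489. The groups did not overlap, but the controls differed by 0.57 on the log2 scale, the wider spread of the 2 groups. Its level averaged 1.37 ± 0.379 CPM (SD, n = 2) in the controls against 7.84 ± 0.379 (SD, n = 2), a log2 ratio of 2.52 (SE 0.20), or 5.73-fold.

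*SCN9A*, at chr2:166195185-166376001 on the minus strand, encodes Nav1.7, the channel of pain-sensing neurons whose loss abolishes pain. Control libraries held 1072 and 1118 of its counts, against 251 and 299 in those labelled sgUSP22. Both sgUSP22 libraries were thus below both controls. The level averaged 17.8 ± 0.240 CPM (SD, n = 2) in the controls and 4.23 ± 0.574 (SD, n = 2) with sgUSP22. The log2 ratio was -2.07 (SE 0.12), or 4.20-fold lower. The pairs of libraries ranged from -2.23 to -1.92.

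*SCN2A*, at chr2:165194993-165392310 on the plus strand, encodes the excitatory neuron channel Nav1.2 and was close to absent. It had 11 and 4 counts in control libraries and 3 and 4 counts in sgUSP22 libraries. A library of each group had 4 counts, and the gene did not pass the filter on low counts, so no fold change is given. It stayed at 3 and 4 counts in the same libraries in which *SCN1A*, with which it shares 204 of its 50-base windows, had 2265 and 2636.

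Outside the cluster *SCN8A* was lower and *SCN4A* was not distinguishable. *SCN8A*, at chr12:51590266-51812864 on the plus strand, encodes Nav1.6, the main channel of nodes of Ranvier. With 1551 and 1592 counts in control libraries and 897 and 1012 counts in sgUSP22 libraries, its groups were separate. Levels averaged 25.5 ± 0.0580 CPM (SD, n = 2) in the controls and 14.7 ± 1.43 (SD, n = 2) with sgUSP22, and the log2 ratio was -0.80 (SE 0.091), or 1.74-fold lower. *SCN4A*, at chr17:63938554-63972918 on the minus strand, encodes Nav1.4, the channel of skeletal muscle. Its counts of 53 and 76 in control and 36 and 62 in sgUSP22 libraries overlapped. The log2 ratio of -0.47 (SE 0.38) was within the spread between replicates, which reached 0.81 in the sgUSP22 group.

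The beta subunit genes, *SCN3B* at chr11:123629187-123655244 and *SCN4B* at chr11:118133377-118152888, both on the minus strand, were at the limit of detection. *SCN4B* had 12 counts in each control library and 4 in each sgUSP22 library. The groups did not overlap, but the gene passed the filter only through the controls, where it was high, and its log2 ratio of -1.63 had a standard error of 0.86. *SCN3B* had 4 counts in control replicate 1, was listed at 0 in control replicate 2, and had 4 and 8 counts in the sgUSP22 libraries. The groups of *SCN3B* overlapped, and it did not pass the filter. For independent reads a 0 allows up to 3, but with the uneven low values described above what this limit is in counts is unknown.

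**Figure D1:**
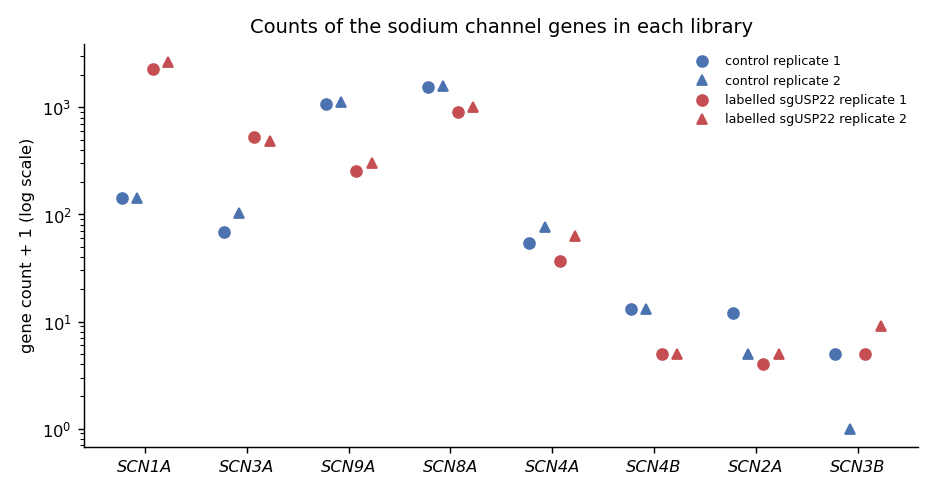
Gene counts plus 1, on a log scale, of the 8 sodium channel genes in each of the 4 libraries. Points of the sgUSP22 libraries lie above the controls for *SCN1A* and *SCN3A* and below them for *SCN9A*, *SCN8A* and *SCN4B*, the groups overlap for *SCN4A*, and those of *SCN2A* and *SCN3B* meet at 4 counts.

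In all, 6 of the 8 genes passed the filter. Genes were called where edgeR's quasi-likelihood test, adjusted by Benjamini-Hochberg, gave a p under 0.05 and the change was 1.5-fold or more. By this rule 2 of them, *SCN1A* and *SCN3A*, counted as higher, where 8.88% of the 15150 tested genes did, and 2, *SCN9A* and *SCN8A*, as lower, where 7.25% did. The groups of 5 of the 6 did not overlap, as those of 75.9% of all tested genes did not. Since the genes were chosen on this comparison, nothing is read from these counts. The median log2 ratio was -0.63 over the 6 genes and 0.0009 over all genes tested.

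**Figure D2:**
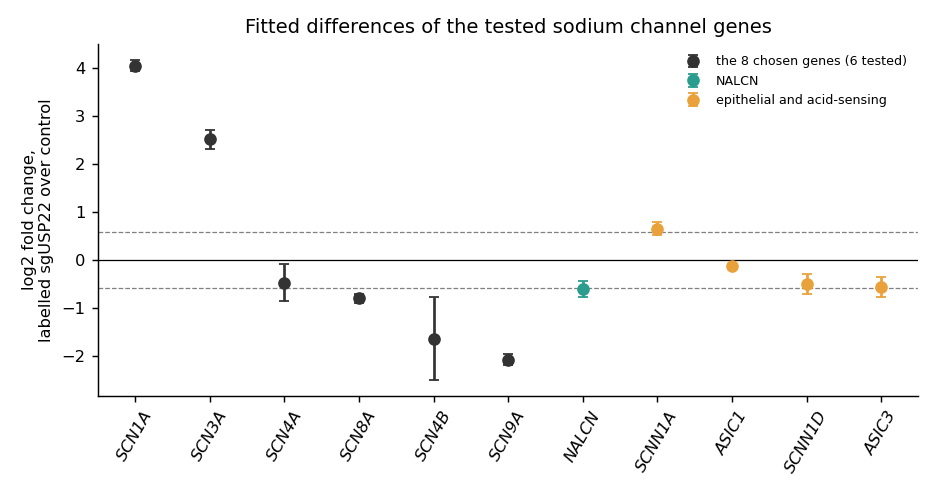
Fitted log2 fold change, libraries labelled sgUSP22 over control, of the 6 tested chosen genes, *NALCN* and the 4 tested epithelial and acid-sensing channel genes, with bars of 1 standard error and dashed lines at 1.5-fold. *SCN1A* (4.05) and *SCN3A* (2.52) stand highest and *SCN9A* (-2.07) lowest, and *SCN4B* has the widest bar.

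Levels between genes were compared as CPM per kb of the longest annotated transcript. In control cells *SCN8A* was first with 2.204 ± 0.0050 (SD, n = 2) and *SCN9A* second with 1.82 ± 0.0246 (SD, n = 2) CPM per kb. Then came *SCN1A* with 0.176, *SCN3A* with 0.150 and *SCN4A* with 0.134, neighbours that did not differ beyond the spread of *SCN3A* (SD 0.0417) and *SCN4A* (SD 0.0316). *SCN4B* had 0.0434, and *SCN2A* (0.0105) and *SCN3B* (0.0054) could not be ordered.

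In sgUSP22 libraries *SCN1A* was first with 2.92 ± 0.349 (SD, n = 2) CPM per kb. It was followed by *SCN8A* with 1.27 ± 0.124 (SD, n = 2), *SCN3A* with 0.862 ± 0.0416 (SD, n = 2) and *SCN9A* with 0.433 ± 0.0588 (SD, n = 2), with gaps larger than the SDs. *SCN4A* had 0.0966, and *SCN3B* (0.0152), *SCN4B* (0.0137) and *SCN2A* (0.0046) were near the floor.

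Expressed as a share of all 6 alpha subunit genes per length, *SCN8A* held 49.1% ± 0.905 (SD, n = 2) and *SCN9A* 40.5% ± 0.290 (SD, n = 2) of the control signal. In sgUSP22 libraries *SCN1A* held 52.2% ± 1.31 (SD, n = 2), *SCN8A* 22.7% ± 0.0701 (SD, n = 2), *SCN3A* 15.5% ± 2.22 (SD, n = 2) and *SCN9A* 7.73% ± 0.321 (SD, n = 2). The leading alpha transcript was therefore *SCN8A* in both control libraries and *SCN1A* in both sgUSP22 libraries. The summed alpha level went from 4.49 ± 0.0930 (SD, n = 2) to 5.58 ± 0.528 (SD, n = 2) CPM per kb, or 1.24 times. The genes were chosen because members had moved in opposite directions. That choice favours a smaller change in the sum than in single genes, so nothing is read from it.

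**Figure D3:**
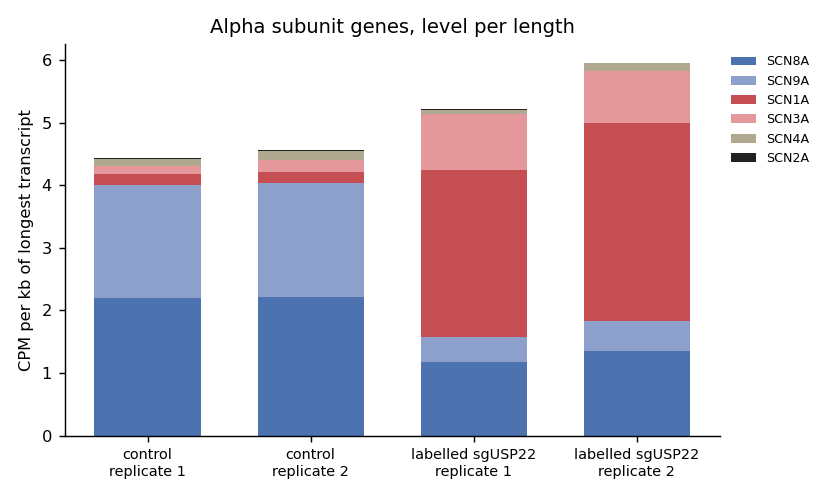
Level of the 6 alpha subunit genes in each library, in CPM per kb of longest transcript, stacked from 0. *SCN8A* and *SCN9A* fill most of the control bars, and *SCN1A* fills 51.3% and 53.1% of the sgUSP22 bars.

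The chromosome 2 cluster spans 165087526 to 166376001 of hg38, or 1288 kb. *SCN1A* and *SCN9A*, whose counts moved in opposite directions, lie next to each other on the same strand, with a gap of 46.0 kb between them and 227 kb between their start sites. Of 16 other genes in the table that start within 2 Mb of a cluster gene, 7 were tested, and 2 of these rose and 0 fell, where 8.88% of all tested genes were higher and 7.25% lower. The genes that rose were *COBLL1*, an actin-binding protein gene, with a log2 ratio of 0.93 (SE 0.062, adjusted p = 1.91e-06 by the edgeR fit), and *GALNT3*, which encodes an enzyme that starts O-glycosylation and lies between *SCN2A* and *SCN1A*. *GALNT3* had 1953 and 1935 counts in control and 3152 and 3210 counts in sgUSP22 libraries, a log2 ratio of 0.63 (SE 0.056, adjusted p = 1.09e-05), which fell to 0.46 and under the 1.5-fold threshold once trends with GC content and length were removed. The call of *GALNT3* was also lost in a test against 1.5-fold, and that of *COBLL1* was not. With the trends removed *COBLL1* had a log2 ratio of 0.63, just past 1.5-fold. *TTC21B*, a gene of the primary cilium next to *SCN1A*, had a log2 ratio of 0.38 (adjusted p = 0.000285), under 1.5-fold.

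Farther out, the log2 ratios were 0.23 for *FIGN*, -0.10 for *GRB14* and -0.38 for *STK39* (adjusted p = 0.073, 0.556 and 0.00105). Those of the tested neighbours lay between -0.42 (*SCN1A-AS1*, SE 1.14) and 0.93 (*COBLL1*). Since *SCN9A* and *SCN1A* were chosen on their shifts, nothing is read from neighbours having log2 ratios between theirs. *SCN7A*, the next sodium channel gene beyond *SCN9A*, was listed at 0 in all 4 libraries, as was *XIRP2* after it.

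**Figure D4:**
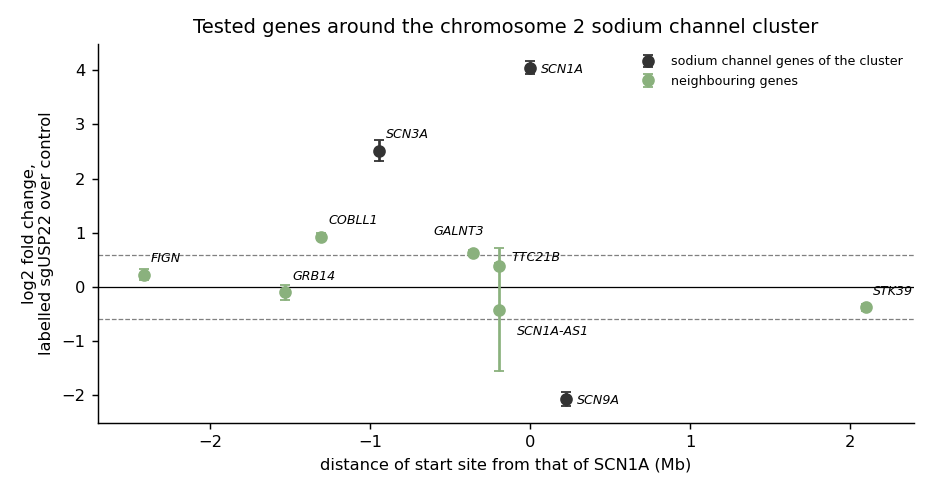
Fitted log2 fold change with bars of 1 standard error for each tested gene around the chromosome 2 cluster, against the distance of its start site from that of *SCN1A* in Mb. *SCN1A* (4.05) and *SCN9A* (-2.07) lie side by side at opposite ends of the scale, and the log2 ratios of the neighbouring genes fall between theirs.

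Some of these genes overlap on opposite strands, and whether the counting used the strand is not stated. The antisense gene *SCN1A-AS1* covers all of *SCN1A* and of *SCN9A*, at chr2:165957188-166390771 on the plus strand. It had 29 and 0 counts in control libraries and 14 and 9 counts in sgUSP22 libraries, with overlapping groups, so it stayed low where *SCN1A* was high and where *SCN9A* was high. *SCN2A* and *SCN3A* overlap head to head over 9058 bases. *SCN2A* had 3 and 4 counts in the libraries in which *SCN3A* had 533 and 489.

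RefSeq promoter sequences were found for 5 of the 8 genes, and none was listed for *SCN3A*, *SCN4A* or *SCN3B*. The number of CG pairs was counted in the 250 bases before each listed start site. These sites are not all at the annotated start of the gene. Windows of *SCN2A* lie at chr2:165239164-165239413 and chr2:165240810-165241059, inside the gene, which starts at 165194993. That of *SCN4B*, at chr11:118145434-118145683, lies wholly in exons, inside a gene that starts at 118152888. The *SCN8A* window, at chr12:51590983-51591232, also lies inside its gene. The counts therefore do not compare like positions. *SCN8A* had 45 (0.59% of 35116 human promoter entries hold at least as many), *SCN9A* had 22 (28.0% of entries hold at least as many) and *SCN4B* had 17 (39.0%). *SCN1A* had 1 and 2 CG pairs at its 2 listed start sites, and *SCN2A* had 1 at each of 2, where 14.7% of entries hold at most 1. The parts of a *SCN1A* and of the *SCN9A* window that lie outside annotated exons are printed with CG in capitals, since these neighbours moved in opposite directions. They come from RefSeq on GRCh38.p14, minus strand, at chr2:166128040-166128270 for *SCN1A* and chr2:166376002-166376194 for *SCN9A*. The *SCN1A* window printed lies inside the annotated gene, whose start site is at 166149214. The other *SCN1A* window, near that start, lies wholly in exons and is not printed.
SCN1A: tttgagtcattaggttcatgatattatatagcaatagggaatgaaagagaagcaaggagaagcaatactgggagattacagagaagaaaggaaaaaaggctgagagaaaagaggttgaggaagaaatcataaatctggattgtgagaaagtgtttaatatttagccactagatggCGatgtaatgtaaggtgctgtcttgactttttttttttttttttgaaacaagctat
SCN9A: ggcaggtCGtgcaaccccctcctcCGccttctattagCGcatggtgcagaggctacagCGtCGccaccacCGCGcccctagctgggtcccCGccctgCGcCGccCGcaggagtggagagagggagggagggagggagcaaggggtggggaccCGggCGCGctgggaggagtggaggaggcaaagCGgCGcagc
The *SCN1A* stretch of 231 bases holds 1 CG pair, and the *SCN9A* stretch of 193 bases holds 16. Methylation and binding at these promoters, and which starts of these genes the cells use, are not analysed here.

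Other genes of the family were scarce in these cells. *SCN7A*, *SCN10A*, *SCN11A* and the beta subunit gene *SCN2B* were listed at 0 in all 4 libraries. *NALCN*, which encodes a sodium leak channel that needs no depolarisation to open, had 240 and 264 counts in control and 188 and 164 counts in sgUSP22 libraries. It fell, where 7.25% of all tested genes did. Its log2 ratio of -0.60 (SE 0.17, adjusted p = 0.0145 by the edgeR fit) lay just past 1.5-fold and was lost with DESeq2 (-0.60) and with library size alone (-0.54), and without control replicate 2 (-0.54) or sgUSP22 replicate 2 (-0.51).

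Among 9 epithelial and acid-sensing sodium channel genes, 4 were tested, 1 rose and 0 fell, where 8.88% and 7.25% of all tested genes did. The one that rose was *SCNN1A*, the alpha subunit of the epithelial channel ENaC, from 5.01 ± 0.413 CPM (SD, n = 2) in control to 7.89 ± 0.824 (SD, n = 2), with a log2 ratio of 0.66 (adjusted p = 0.00279). Without control replicate 2 it was 0.575 and without sgUSP22 replicate 1 it was 0.53, both under 1.5-fold.

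Genes for proteins that hold sodium channels in place formed another list. Of 13 tested anchoring and trafficking genes, 2 rose and 1 fell, against 8.88% and 7.25% of all tested genes. *ANK2*, which encodes the membrane adaptor ankyrin-B, fell from 22.7 ± 0.734 CPM (SD, n = 2) in control to 14.3 ± 0.722 (SD, n = 2), with a log2 ratio of -0.67 (adjusted p = 0.000122 by the edgeR fit). *NRCAM*, a cell adhesion molecule of the axon initial segment, rose by a log2 ratio of 0.88 (adjusted p = 0.000417), and *MAP1B*, a microtubule-associated protein, by 1.05 (adjusted p = 7.74e-08). In a test against 1.5-fold *MAP1B* kept its call, and *ANK2* and *NRCAM* lost theirs. The median of the list was 0.13, against 0.0009 for all genes.

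Of 19 kinases, ligases and calmodulin genes that act on the channels, all were tested, 1 rose and 1 fell, against 8.88% and 7.25% of all genes. *NEDD4*, a ubiquitin ligase, rose from 84.7 ± 1.44 CPM (SD, n = 2) in control to 156.1 ± 7.24 (SD, n = 2), a log2 ratio of 0.88 (adjusted p = 3.14e-07). With GC content and length trends removed the log2 ratio of *NEDD4* was 0.61, just past 1.5-fold. In the main fit its relative *NEDD4L*, which tags sodium channels for removal from the membrane, had 0.29 (adjusted p = 0.00116), under 1.5-fold. *CAMK2G*, a subunit of calmodulin-dependent kinase II, fell, with a log2 ratio of -0.76 (adjusted p = 4.94e-06). Neither of the 2 tested FGF homologous factor genes, whose products bind the channel tail, was called, and *FGF12* had a log2 ratio of -0.47 (adjusted p = 0.134).

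REST, a repressor that silences neuronal genes outside the nervous system, is known to act on genes of this family. *REST* itself had 3342 and 3554 counts in control and 4398 and 4552 counts in sgUSP22 libraries. Its log2 ratio of 0.30 (SE 0.050, adjusted p = 0.000677) lay under 1.5-fold and was 0.063 once GC content and length trends were removed. *RCOR1*, its corepressor, had 0.10 (adjusted p = 0.0622). Of the 15 tested genes of REST and its cofactors 0 rose and 1 fell, where 8.88% and 7.25% of all tested genes did. That gene, *PRICKLE1*, had 25, 73, 17 and 10 counts and was no longer called without control replicate 2 (-0.98), without sgUSP22 replicate 2 (-1.60) or with no filter (-1.92).

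Of 15 neuronal genes known as REST targets, 8 were tested, 2 rose and 1 fell, where 8.88% and 7.25% of all tested genes did. *UNC13A*, which primes synaptic vesicles, had 36 and 32 counts in control and 96 and 108 counts in sgUSP22 libraries, a log2 ratio of 1.503 (SE 0.31, adjusted p = 0.00228). *CELSR3*, an adhesion receptor of growing axons, had 0.59 (adjusted p = 1.08e-05), at the 1.5-fold edge and lost in 7 of 14 alternatives. *BDNF*, a neuronal growth factor, fell, with a log2 ratio of -0.63 (adjusted p = 5.82e-05), lost with library size alone (-0.58) and without control replicate 2 (-0.58). *STMN2*, *SYT4*, *CHGA* and *NEFM* were listed at 0 in all libraries.

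Of 8 splicing regulators known to choose sodium channel exons, 5 were tested. Among these 1 rose and 0 fell, where 8.88% and 7.25% of all tested genes did. The 1 that rose was *SRRM4*, a splicing factor of neurons, named after its values were seen. It had 0 and 4 counts in control and 33 and 44 counts in sgUSP22 libraries (adjusted p = 0.00303 by the edgeR fit). The gene passed the filter only through the sgUSP22 libraries, where it was high, so its call depends on that rise. Its fold change rests on control counts near the floor. *PTBP1*, which represses neuronal exons, had a log2 ratio of -0.30, and its neuronal paralog *PTBP2* of 0.43, both under 1.5-fold.

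**Figure D5:**
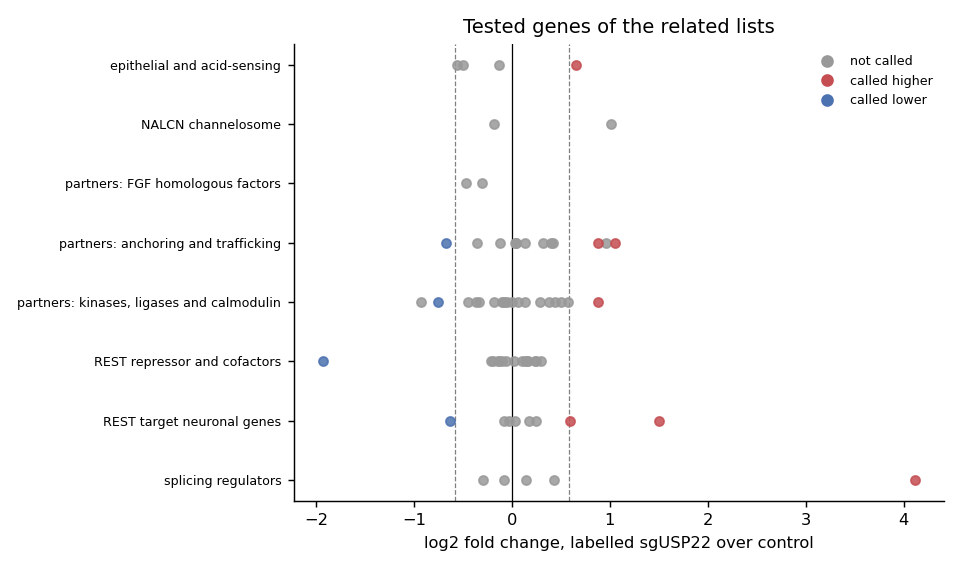
Fitted log2 fold change, libraries labelled sgUSP22 over control, of each tested gene of the epithelial channel, NALCN complex, partner, REST and splicing lists, with 1 row per list, dashed lines at 1.5-fold and colours for called genes. Most points lie between the dashed lines, and called genes lie on both sides.

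The genes whose profile over the 4 libraries was most like that of the extreme members were also looked up, as a description from the same comparison. For *SCN1A*, among 2650 genes of like level, the closest were *AKR1C1* (Euclidean distance 0.28 in mean-centred log2 CPM), *FZD10* (0.58) and *AKR1C2* (0.65). *AKR1C1* and *AKR1C2*, which encode aldo-keto reductases that inactivate steroids, are near-identical paralogs, so their separate counts are uncertain. *AKR1C1* had 131 and 157 counts in control and 2527 and 2399 counts in sgUSP22 libraries, and *FZD10*, a Wnt receptor gene, had 75 and 106 against 1190 and 1145. For *SCN9A*, among 2539 genes, the closest were *IRF7* (0.14), a transcription factor of the interferon response, *SEMA7A* (0.18), which encodes a semaphorin, and *MYLK3* (0.22), a myosin light chain kinase gene. *IRF7* had 1241 and 1372 counts in control and 328 and 347 counts in sgUSP22 libraries.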

How the data were processed

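RNA from 2 control and 2 sgUSP22 libraries was compared. Per the labels' processing notes, the authors aligned reads to hg38 with HISAT2 2.2.1 and made gene counts with StringTie 2.2.1, deposited as whole-number counts not divided by library size. Annotation, strand setting and read length are not given in the sources used here. The counts were fitted in R 4.3.3 with edgeR 4.0.16 (filterByExpr with a minimum count of 10, TMM, glmQLFit, glmQLFTest, Benjamini-Hochberg over 15150 tested genes), and called where that p was under 0.05 and the change 1.5-fold or more. Each SE is the size of the log2 ratio divided by the root of the F statistic. DESeq2 1.42.0 was an alternative, and both tools were tested on simulated data. Total counts of 62030307 to 64728272 set the precision, and a 0 allows up to 3 independent reads, for counting error only.

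Positions, lengths and GC content came from GENCODE 44, which matched 25763 of 28278 symbols. The members and lists were chosen with earlier results of these data known. Named were the 8 genes, *USP22*, *REST*, *RCOR1*, called genes of each list whose average log2 CPM was 0 or more (up to 4), tested genes within 2 Mb of the chromosome 2 genes, and the 3 nearest profiles of the members with the largest rise and fall among genes within 1 log2 CPM. *NEDD4L*, *FGF12*, *PTBP1*, *PTBP2*, *PRICKLE1*, *SRRM4* and *RYR1* fell outside this rule and were named after their values were seen. The same holds for *CPS1*, *FOXA1*, *CEBPA*, *HNF4A*, *AFP* and the genes named as being at 0 in all libraries. Some genes and sequences are not reported here. The lists were other voltage-gated, epithelial and acid-sensing channels, the NALCN complex, channel partners, sodium pumps, REST with cofactors and targets, splicing regulators, and markers of hepatocytes, neurons, skeletal muscle and glia. The fit was repeated with DESeq2, unfiltered, with genes averaging 50 counts or more, scaled by RLE or by library size alone, with the replicate number as a block, without the fold threshold, with a test against 1.5-fold, with lowess correction for GC content and length (span 0.3), and without each library. Levels were repeated with exon union as length. Dividing counts by 4 was chosen after the data were seen.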

Additional observations from a re-analysis of the deposited data

How the results depend on the processing

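*SCN1A* and *SCN3A* stayed higher and *SCN9A* lower, each called, in all 13 refits, and none of the 76 values of the 6 tested members reversed. Their log2 ratios ranged from 3.72 to 4.16, from 2.24 to 2.83 and from -2.37 to -1.95. That of *SCN8A* ranged from -0.97 to -0.71 and was called in 12 of 13, the exception being the test against 1.5-fold, which left 1 member called lower. *SCN4A* ranged from -0.93 without sgUSP22 replicate 2 to -0.13 without sgUSP22 replicate 1. The removal of GC content and length trends gave the lowest value of *SCN1A* (3.72), *SCN3A* (2.24), *SCN9A* (-2.37) and *SCN8A* (-0.97). Both rises were thus smaller and both falls larger than in the main fit. Over all genes, 1345 were called higher and 1098 lower. With no fold change threshold 4057 were higher and 3904 lower, and with the test against 1.5-fold 578 and 428, both by construction. That test also ended the calls of *NALCN*, *SCNN1A*, *BDNF*, *CELSR3* and *PRICKLE1*. With library size alone 1557 were higher and 941 lower. Leaving out 1 library gave 1158 to 1400 higher and 995 to 1139 lower, where the lone library of a group is assumed to vary like the other group. The replicate numbers share only a number (correlation of deviations 0.042), and the fit that included the replicate block called 1341 higher and 1100 lower, with 2 members on each side and no member's call changed. With exon union as length *SCN4A* (0.127 CPM per kb) came before *SCN1A* (0.120) and *SCN3A* (0.118) in control cells. *SCN2A* and *SCN3B* are too low at this depth for a difference to be detected.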

Other observations

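The sodium pump, which restores the gradient that these channels use, is encoded by genes of which 6 were tested and 0 were called by the edgeR fit, and their median log2 ratio was 0.14. Of the NALCN complex genes, 2 were tested and 0 called. Around the members outside chromosome 2, 4 of 59 tested neighbours of *SCN8A* were higher and 6 lower, and 2 of 35 tested neighbours of *SCN4A* were higher and 2 lower, counting genes that start within 2 Mb. The corresponding counts were 2 and 3 of 25 for *SCN3B* and 2 and 1 of 44 for *SCN4B*. Over all tested genes 8.88% were higher and 7.25% lower.

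Of 13 skeletal muscle markers 7 were listed at 0 in all libraries. Of the 2 tested 1 was lower, where 7.25% of all tested genes were. That one was *RYR1*, the calcium release channel of muscle, named after its values were seen, with 70 and 37 counts in control and 15 and 12 counts in sgUSP22 libraries. Its call was lost without control replicate 1 (-1.51 on the log2 scale) and in the test against 1.5-fold (-2.06). Of 8 glial and Schwann cell markers 5 were at 0 and 0 of 1 tested was called. Of 5 tested hepatocyte genes 1 was lower, *ASGR1*, a liver lectin receptor, with a log2 ratio of -0.82 (adjusted p = 0.00649), a call that was lost in the test against 1.5-fold.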
